A study of Komagataella pastoris with 15 samples.

Results

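The transcripts described here are those that were lowest on the arrays labelled as the peak of recombinant human serum albumin (rhHSA) production in a fermentation of Pichia pastoris, a yeast that the labels call Komagataella pastoris. They were chosen from the table of log2 values that the authors deposited, which holds 1 value per probe and array for 3915 of the 5039 probes on the array. A probe was a member if its mean over the rhHSA peak arrays lay at least 0.6 log2 units below its mean in each of the 4 other phases. Probes that also stood out in another phase were left out by upper limits. These were 1 log2 unit above all others for decreased rhHSA, 0.8 for logarithmic growth and for adapted methanol, and 0.6 for the end of glycerol feeding. Also left out were probes raised both at the end of glycerol feeding and in adapted methanol, and within 0.6 of each other there. The rise had to be at least 1 log2 unit over logarithmic growth and over the rhHSA peak, and decreased rhHSA did not count. The lower limit was met by 118 probes, and the upper limits removed 19 of them, so that 99 members remained, or 2.53% of the table. Every value of the rhHSA peak against another phase was used in this choice and is given below as a description. Calls by a fit on these values are printed too, but they are no test of the members.

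Pichia pastoris is a methylotrophic yeast, able to live on methanol as its only carbon source. In production runs it is usually grown to high density on glycerol and then moved to methanol, which is oxidised in the peroxisomes and induces the alcohol oxidase genes whose promoters commonly drive the foreign protein. The strain, the promoter and the copy number of the rhHSA gene are not given in the sources used here.

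Cells came from fermentors of 40 L. Replicates are numbered 1 to 3 in the sample titles and are read here as fermentors 1 to 3. Each had 1 single-dye Agilent array in each of 5 phases, 15 arrays in all. In process order these were logarithmic growth, the end of the glycerol feed once cells had starved for 40 min, cells fully adapted to methanol as sole carbon source, the peak of the rhHSA expression rate, and the end of fermentation with rhHSA decreased to 220 mg/L. Sampling times are listed in the protocol but not by phase, and none is used here. Probes carry a locus tag and nothing else in the files, and a search of all 5305 genes listed for the assembly ASM170810v1 found 0 of these 5039 tags. The genes of that assembly carry locus tags of another form, so the lack of matches does not show that the members lack annotation elsewhere. From the sources used here no gene name, product or pathway could be attached to a member. For the same reason the labels were not checked against methanol-induced genes. At most 2 tags per direction are named in each comparison.

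The arrays were scanned on 2 occasions. Of the 7 arrays on scan 1, 3 were those of decreased rhHSA and 4 came from fermentor 1 in the phases before it, and the remaining 8 arrays were on scan 2. In the scanner files, members differed between scan 1 and scan 2 with an SD of 0.73 log2 units, as did all 5024 tested probes (0.73), with medians of -0.04 for members and 0.0 for all tested probes. Arrays 2 and 3 of logarithmic growth agreed within the noise of replicate spots, since 2.36% of probes differed at p below 0.05 by a test over spots, whereas other pairs sharing phase and scan had 6.87% to 56.1%. They were counted as 1 sample in means ± SD, which gives n = 2 there, while the choice of members and the fits kept all arrays. Nothing in the files shows separate cultures beyond the replicate numbers. The 3 arrays of decreased rhHSA also differed little (6.87% to 9.36%), as did arrays 2 and 3 of the end of glycerol feeding (8%). The SDs of these phases may thus be mostly technical. The fits treated all arrays as separate samples, so their SEs and calls may rest largely on technical spread too. The rhHSA peak arrays correlated best with logarithmic growth over the 3915 probes of the deposited table (r = 0.973 between phase means, against 0.942 with the end of glycerol feeding, 0.91 with adapted methanol and 0.889 with decreased rhHSA, a correlation across probes, which are not replicates). Whether the RNA on them is from the labelled phase was not tested.

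The rhHSA peak was a shallow trough for most members. In RNA from whole cultures, fewer cells with a transcript and less of it per cell cannot be told apart. The margin, which is the lowest of the 4 other phase means minus the rhHSA peak mean in the deposited table, had a median of 0.82 log2 units over the 99 members, with quartiles of 0.69 and 0.93 and a largest value of 1.67. It reached 1 log2 unit in 19 members. The limit cut through a continuum of margins. The 3 members just inside it had 0.603, 0.604 and 0.616, and the 3 probes just outside that met all other conditions had 0.599, 0.597 and 0.591. For comparison, 292 probes of the same table were at least 0.6 log2 units below all other phases in decreased rhHSA, 169 in adapted methanol, 118 in the rhHSA peak, 74 in logarithmic growth and 51 at the end of glycerol feeding. In the same order, 351, 143, 42, 110 and 41 probes were that far above all other phases.

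**Figure D1:**
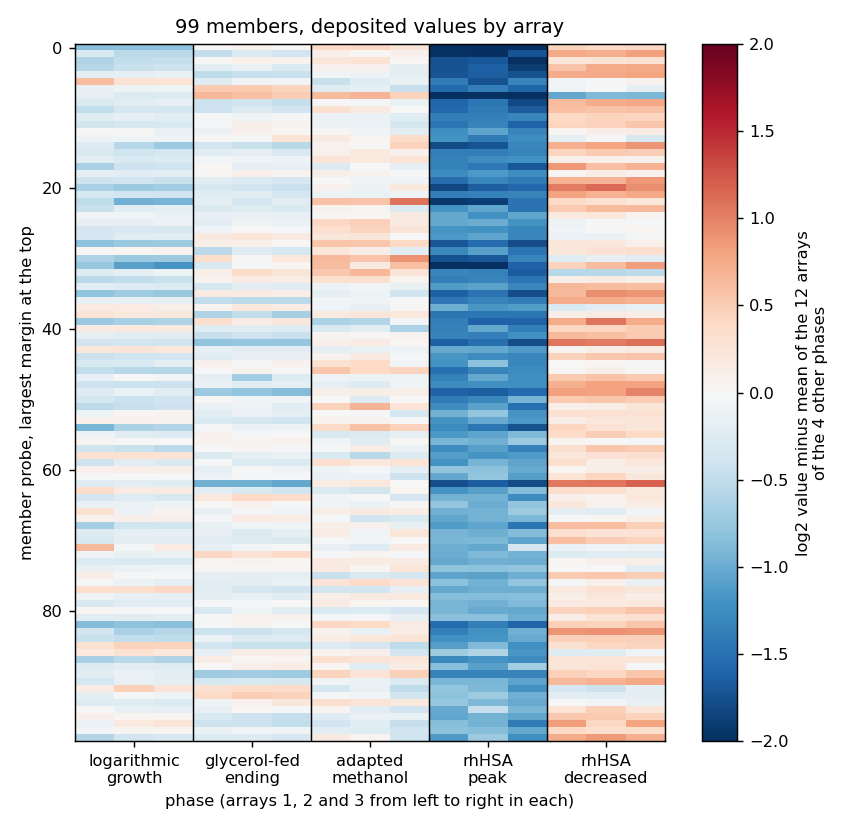
Deposited log2 values of the 99 members (rows, largest margin at the top) on the 15 arrays (columns, by phase), each minus the mean of the member's 12 arrays outside the rhHSA peak. Colours end at 2 log2 units either way. The 3 rhHSA peak columns are blue in nearly every row, and the decreased rhHSA columns are the reddest in many rows.

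The member with the largest margin was PAS_chr3_1055. Its deposited log2 values were 12.27, 12.29 and 12.30 in logarithmic growth, 13.14, 13.20 and 13.14 at the end of glycerol feeding, 13.51, 13.53 and 13.38 in adapted methanol, 10.61, 10.63 and 10.61 at the rhHSA peak, and 13.56, 13.50 and 13.53 in decreased rhHSA. The rhHSA peak arrays were below all others with no overlap, and the end of glycerol feeding, adapted methanol and decreased rhHSA all stood above logarithmic growth. Means were 10.62 ± 0.01 at the rhHSA peak (SD, n = 3), against 12.28 ± 0.02 in logarithmic growth (SD, n = 2) and 13.53 ± 0.03 in decreased rhHSA (SD, n = 3). In the scanner values, given in log2 units from each array's 75th percentile, its rhHSA peak arrays read -3.61 on scan 1 and -3.79 and -3.55 on scan 2, against -1.88 on scan 1 and -2.09 on both scan 2 arrays in logarithmic growth. Between phases outside the peak the fit with a scan term gave 0.87 ± 0.07 (SE) for the end of glycerol feeding over logarithmic growth, 0.26 ± 0.07 for adapted methanol over the end of glycerol feeding and 0.03 ± 0.08 for decreased rhHSA over adapted methanol. Its levels in decreased rhHSA and in adapted methanol differed by less than the SE.

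PAS_chr1-1_0443 had the next largest margin, 1.46 log2 units. Its deposited log2 values were 14.12, 13.90 and 13.88 in logarithmic growth, 13.93, 14.13 and 14.04 at the end of glycerol feeding, 14.52, 14.44 and 14.52 in adapted methanol, 12.45, 12.39 and 12.70 at the rhHSA peak, and 15.18, 15.15 and 15.24 in decreased rhHSA. Here logarithmic growth and the end of glycerol feeding overlapped, and decreased rhHSA was above every other array. The fit gave 0.10 ± 0.12 (SE) for the end of glycerol feeding over logarithmic growth, 0.39 ± 0.12 for adapted methanol over the end of glycerol feeding and 0.55 ± 0.13 for decreased rhHSA over adapted methanol. Both members shared the trough but differed in when their level increased outside it.

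**Figure D2:**
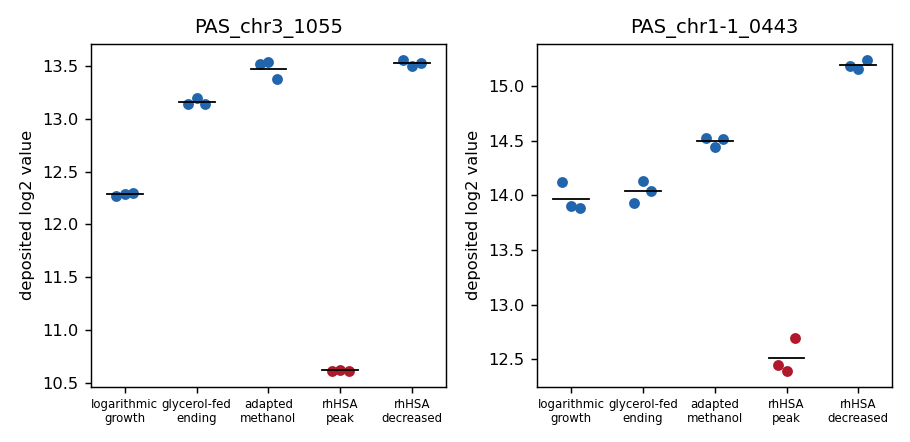
Deposited log2 values of PAS_chr3_1055 (left) and PAS_chr1-1_0443 (right) on each array, by phase in order of the process. Points are arrays 1 to 3, the rhHSA peak in red, and bars are means of the 3 arrays. The rhHSA peak arrays sit at 10.61 to 10.63 on the left and at 12.39 to 12.70 on the right, below all others.

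On the deposited scale the members covered most of the range of signal. Their mean over the 4 other phases ran from 7.82 to 16.79, with a median of 13.11, against 6.53 to 18.14 and a median of 12.62 for all 3915 probes. At the rhHSA peak itself member means ran from 6.56 to 15.30, with a median of 11.96. All 99 members were well above background on all 15 arrays in the scanner files, as were 97.9% of all probes, and no member lacked a scanner value. The 3 rhHSA peak arrays of a member had a median SD of 0.122 in the deposited table (0.004 to 0.353), against 0.108 over all probes.

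In the deposited table each rhHSA peak array was below each of the 12 other arrays in 99 of 99 members, against 10.7% of all probes. The gap between the highest rhHSA peak array and the lowest other array was 0.08 to 1.64 log2 units, with a median of 0.60. Since the rule chose on these values, the count is a description. Membership could still depend on 1 array, as the rule without rhHSA peak array 3 kept 88 of the 99 members. In scanner values with no correction for the scan, the 3 rhHSA peak arrays were below all other arrays in 63 members, against 4.94% of the 4006 probes with a value on all 15 arrays.

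Set against each phase in turn with the scan as a term in the fit, the members' median difference was -1.0 for the rhHSA peak over logarithmic growth, -1.07 over the end of glycerol feeding, -1.11 over adapted methanol and -1.36 over decreased rhHSA, in log2 units. Over the 5024 tested probes the same medians were 0.0, -0.03, 0.06 and 0.22. The fit called 99, 99, 99 and 93 members lower at the rhHSA peak, in the same order, at a limma adjusted p under 0.05. Over all tested probes the share called lower was 29.7%, 36.1%, 34.1% and 31.0%. The rule chose the members for these differences on the same arrays, so their calls were largely fixed in advance. The calls are no test of the members, and nothing is read from the counts here or below. Against decreased rhHSA the member differences ran from -2.79 to 0.06, and 6 members were not called. With quantile normalization, again only as a description, 99 members were called lower there, against 33.8% of tested probes. Decreased rhHSA lay on scan 1 alone, so its distance from the rhHSA peak rests on how the scan difference is handled.

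**Figure D3:**
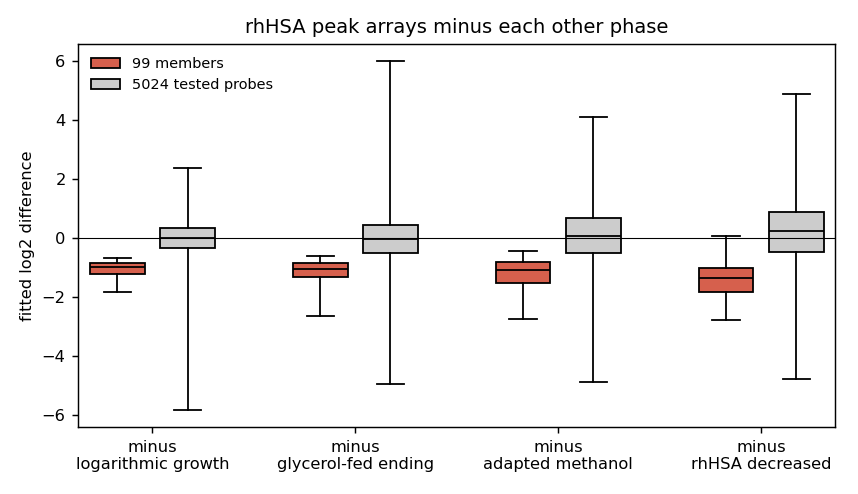
Fitted log2 difference of the rhHSA peak arrays from each other phase, with the scan as a term, for the 99 members (red) and the 5024 tested probes (grey). Boxes are quartiles with the median, and whiskers reach the lowest and highest value. Member medians sit at -1.0, -1.07, -1.11 and -1.36.

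The members' margins were also described on each scan alone from the scanner files, with no correction between scans. These are the arrays on which the members were chosen. A low rhHSA peak on each scan thus follows largely from the choice and is no independent support. On scan 1, with 1 array each of the first 4 phases, the lowest of logarithmic growth, end of glycerol feeding and adapted methanol exceeded the rhHSA peak by a median of 0.84 log2 units (0.38 to 2.18), and it was above 0 in 99 members. On scan 2, with 2 arrays a phase, the median was 0.83 (0.25 to 1.69), again above 0 in 99 members. Of all probes on the array, 22.6% had such a margin above 0 on scan 1 and 20.2% on scan 2. The margins on both scans correlated at r = 0.70 over the 99 members, as a description across probes chosen from these same arrays. At least 0.6 log2 units was reached by 90 members on scan 1 and by 85 on scan 2.

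Decreased rhHSA can be set against the rhHSA peak within scan 1 only, where the peak has 1 array and so no spread. There the rhHSA peak array was below the mean of the 3 decreased rhHSA arrays in 98 members, against 41.4% of all probes, with a median difference of -1.40 log2 units (-2.83 to 0.10). The rhHSA peak array was lower than each of the 6 other arrays of scan 1 in 96 members, against 17.3% of probes. Both rhHSA peak arrays of scan 2 were lower than each of the 6 arrays of the 3 earlier phases in 97 members, against 13.4% of probes. The members were chosen for low values on these same arrays, so these counts are a description and their excess over all probes was built in.

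**Figure D4:**
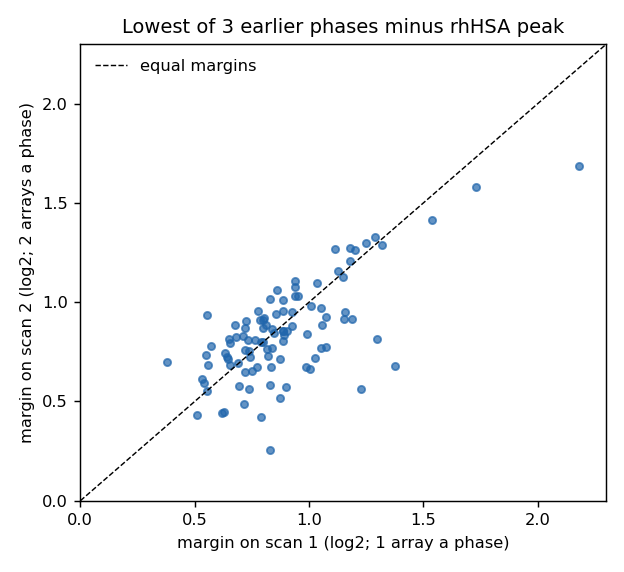
Margin of each of the 99 members on scan 1 (x axis) and on scan 2 (y axis), as the lowest of logarithmic growth, end of glycerol feeding and adapted methanol minus the rhHSA peak, in log2 units of the uncorrected scanner values. The dashed line marks equal margins. All points are above 0 on both axes, from 0.38 to 2.18 on scan 1 and from 0.25 to 1.69 on scan 2.

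Outside the trough the members were not flat, but the median member varied less than the median probe. The range of the members' 4 other phase means had a median of 0.82 log2 units (0.17 to 2.09), against 1.12 for all 3915 probes. Its upper quartile was 1.15 for members and 1.59 for all probes. The range was under 0.6 in 32.3% of members and 15.8% of all probes. The rule set upper limits on single phases and so narrows this range. Of the 4 other phases, logarithmic growth was the lowest in 49 members, the end of glycerol feeding in 26, adapted methanol in 15 and decreased rhHSA in 9. Decreased rhHSA was the highest phase in 59 members, adapted methanol in 22, and the end of glycerol feeding and logarithmic growth in 9 each. Among all probes the highest of these 4 phases was decreased rhHSA in 29.5%, adapted methanol in 25.2%, the end of glycerol feeding in 16.4% and logarithmic growth in 28.9%. In 20 members (20.2%, against 7.46% of all probes) the means went up at each step through logarithmic growth, end of glycerol feeding, adapted methanol and decreased rhHSA, with the rhHSA peak as the exception. No test was made of these shares, as every phase mean entered the rule.

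The differences among these 4 phases were also taken from the fit with a scan term. Their counts are read only as a description, beside the share of all tested probes, because the upper limits of the rule act on them. At the end of glycerol feeding 34 members were called higher than in logarithmic growth and 23 lower, where 36.3% of tested probes were higher and 36.2% lower. The member differences ran from -0.83 to 0.93 log2 units with a median of 0.07, and the median of all tested probes was 0.0. Without the scan term the members called numbered 21 in place of 57, against 43.4% in place of 72.5% of tested probes.

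Chosen after their values were seen, PAS_chr2-1_0301 and PAS_chr2-1_0532 show the largest differences of either sign at this step among called members whose arrays did not overlap. The deposited values of PAS_chr2-1_0301 were 14.95, 14.96 and 14.90 at the end of glycerol feeding, against 13.97, 14.06 and 14.01 in logarithmic growth. Its fitted difference was 0.93 ± 0.11 (SE), or 1.91-fold. PAS_chr2-1_0532 had 11.91, 11.85 and 11.85 at the end of glycerol feeding, against 12.60, 12.76 and 12.77 in logarithmic growth, a difference of -0.83 ± 0.08 (SE). Members that shared the trough thus differed in direction at this step.

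From the end of glycerol feeding to adapted methanol, 30 members were called higher in adapted methanol and 18 lower. Over all tested probes 23.0% were higher and 40.3% lower. With quantile normalization the split was 34 members higher and 11 lower, against 27.2% and 30.0% of tested probes. The median difference was 0.08 for members (-1.31 to 1.09) and -0.12 for all tested probes. Without the scan term 12 members were called in place of 48, against 28.4% in place of 63.3% of tested probes. On scan 2 alone 25 members were called, against 42.9% of probes.

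PAS_chr3_0044, picked in the same way, had 15.21, 15.26 and 15.07 in adapted methanol, against 14.09, 14.10 and 14.04 at the end of glycerol feeding, a fitted 1.09 ± 0.08 (SE) or 2.13-fold. Its level was higher still in decreased rhHSA, at 16.12, 16.13 and 16.25, while its rhHSA peak arrays read 13.31, 13.41 and 13.27. PAS_chr1-4_0295 lay at the other end with 16.54, 16.59 and 16.32 in adapted methanol, against 17.31, 17.30 and 17.24 at the end of glycerol feeding, a fitted -1.31 ± 0.14 (SE). The size of this difference depended on the scaling. It was -0.8 in a fit of the deposited values with the scan term and -0.86 with quantile normalization. PAS_chr1-4_0295 was among the brightest members, and even its rhHSA peak arrays read 15.24, 15.40 and 15.19.

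Decreased rhHSA against adapted methanol compares the levels on either side of the trough. In decreased rhHSA 46 members were called higher than in adapted methanol and 17 lower, where 33.9% of tested probes were higher and 39.1% lower. Members differed by a median of 0.20 log2 units (-1.61 to 1.00), and all tested probes by -0.07. With quantile normalization 50 were higher and 10 lower, against 37.0% and 33.7% of tested probes. Without the scan term 42 members were called in place of 63, against 54.0% in place of 72.9% of tested probes. Decreased rhHSA lay on scan 1 alone, so this comparison too rests on how the scan difference is handled.

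The extremes of this comparison were PAS_chr2-1_0592 and PAS_chr3_0148, again chosen after their values were seen. PAS_chr2-1_0592 had 12.71, 12.68 and 12.74 in decreased rhHSA, against 11.74, 11.80 and 11.68 in adapted methanol, a fitted 1.00 ± 0.07 (SE). Its rhHSA peak arrays, at 10.01, 10.13 and 9.87, lay below both, so the levels on either side of the trough differed. PAS_chr3_0148 had 11.83, 11.97 and 11.96 in decreased rhHSA, against 13.50, 13.54 and 13.32 in adapted methanol, a fitted -1.61 ± 0.11 (SE). With 10.52, 10.89 and 10.77 at the rhHSA peak, its level after the trough stayed below all phases before it.

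**Figure D5:**
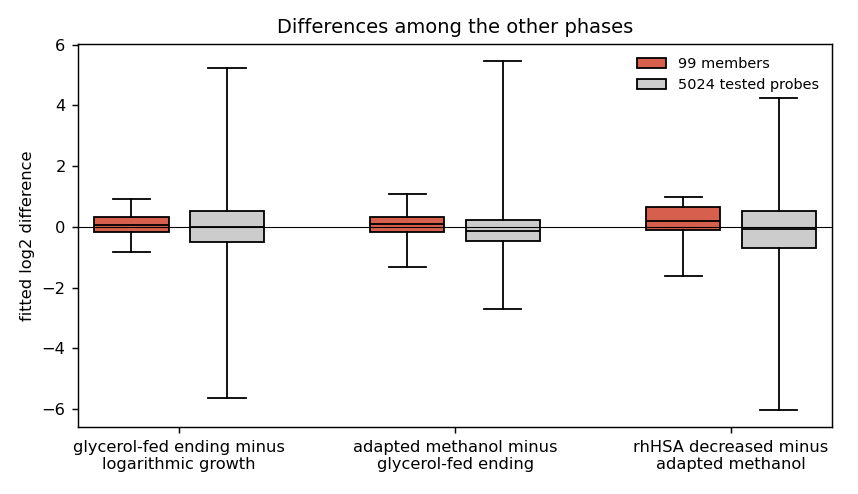
Fitted log2 difference between the phases other than the rhHSA peak, with the scan as a term, for the 99 members (red) and the 5024 tested probes (grey). Boxes are quartiles with the median, and whiskers reach the lowest and highest value. Member medians are 0.07, 0.08 and 0.20. The members are among the tested probes, so their whiskers could not be the longer ones.

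Locus tags carry a prefix and a running number, which the rule did not use. Members were found under 9 of the 11 prefixes, and under the 7 chr prefixes they made up 2.05% to 2.89% of the probes in the deposited table, near the 2.53% over all. The small prefixes FragD and c121 held 3 of 20 probes and 2 of 14, while FragB and c131 held 0 of 59 and 0 of 14. Members had 151 neighbours in the table whose number differed by 1, of which 6 were members (3.97%), and 751 within 5 numbers, of which 24 were (3.20%). These shares are slightly above the 2.53% over all and rest on few tags. Most members thus had no other member near them by number, as 20 of 99 had a member within 5.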

How the data were processed

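Per the labels, Cy3-labelled cRNA of each sample was hybridised to 1 array. In the deposited scanner files spot intensity is linear and was background-subtracted within each array by Agilent Feature Extraction, version 10.7.3.1 per the file headers and 9.1 per the submitters' processing notes. The authors also deposited log2 values for 77.7% of probes. No source used here gives their normalization or centring. Medians per array ran from 12.6 to 12.7. Scale and direction follow from the correlation of each array's column with its scanner signal in log2 (r from 0.983 to 0.988).

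The rule was applied to phase means of the deposited log2 table. Members and lists were chosen with earlier results of these data known. For the fit, log2 processed signal minus the array's 75th percentile was averaged over the 3 spots of a probe without outlier flags (2.26% of values missing). A probe was tested if, in some phase, each of the 3 arrays had 2 or more of its spots well above background. These 5024 probes were fitted over 15 arrays with limma 3.58.1 in R 4.3.3, with phase means and scan as terms and Benjamini-Hochberg adjustment over all probes. The scan term departs from an unblocked fit because SEs otherwise hold the scan difference. Other tools were jsonlite 2.0.0, Python 3.11.15, pandas 2.3.3, numpy 2.4.6 and matplotlib 3.10.9. On simulated data of 3991 probes for decreased rhHSA over adapted methanol, 74% of changes of 0.5 log2 units and 90% of changes of 1 were recovered, with 12 unchanged probes called. The simulation drew noise independently for each array and changed 100 probes of each size. In the data 72.9% of tested probes were called for this comparison, so these rates may not carry over.

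With no tags annotated in the sources used, the rule for named genes left the 2 largest margins, and the gene lists could not be applied. The replicate numbers in the sample titles were taken as fermentor numbers that pair the samples by culture. Deviations of same-numbered arrays correlated at r from 0.448 to 0.943 over the first 4 phases, where fermentor 1 coincides with scan 1, and from -0.303 to 0.247 with decreased rhHSA. Alternatives were other scalings, normexp (offset 50, on median signals, as the files used hold no mean signal), no scan term, a fermentor block, the deposited table, no filter, averaged arrays, scan 2 alone and leaving out each array. The number of arrays limits the precision.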

Additional observations from a re-analysis of the deposited data

How the results depend on the processing

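Scanner values cover all 5039 probes of the array, including those outside the deposited table. Applied to them the rule found 99 probes without scan correction (71 of the members) and 104 with the scan difference removed (82). It found 91 with quantile normalization (72), 89 with median centring (70) and 68 with normexp (56). On scan 1 alone, a setting chosen after seeing the data, it found 130 (83). A margin of 1 left 19 probes, by construction. Leaving out each array in turn gave 92 to 114 probes, 88 to 99 of them members, with 92 and 88 without rhHSA peak array 3. Members called are given with the share of all tested probes called in brackets. At the end of glycerol feeding over logarithmic growth, 57 (72.5%) became 21 (43.4%) without the scan term and 49 to 62 (66.8% to 75.5%) without 1 array. For adapted methanol over the end of glycerol feeding, 48 (63.3%) became 12 (28.4%) without the scan term, 25 (42.9%) on scan 2 alone, which holds fewer arrays, and 39 to 56 (56.5% to 67.3%) without 1 array. For decreased rhHSA over adapted methanol, 63 (72.9%) became 42 (54.0%) without the scan term and 55 to 67 (65.7% to 75.7%) without 1 array. There scan 2 alone gives no value, as it holds no decreased rhHSA array. With fermentor as a replicate block beside the scan the 3 counts were 60 (72.9%), 49 (63.2%) and 53 (64.7%), within 1.5 times, and the pairing changed no call of the named tags. The cause of these changes was not tested. Quantile normalization moved the median of all tested probes by 0.11 for adapted methanol over the end of glycerol feeding and by -0.11 for the rhHSA peak over decreased rhHSA, and by at most 0.10 in size elsewhere. Of the 12 differences of named tags, the 10 called ones kept their sign in every refit. Over all 284 refits 1 changed sign: PAS_chr3_1055 for decreased rhHSA over adapted methanol, 0.03 and not called, was -0.01 without adapted methanol array 3. In 8 refits, all of adapted methanol over the end of glycerol feeding for PAS_chr3_1055 or PAS_chr1-1_0443, they were no longer called.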

Other observations

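The deposited table leaves out 1124 probes of the array. Among these 1124, 11 met the rule in scanner values with the scan difference removed and 13 without that correction. By deposited values 99 of the 3915 probes in the table met it. Some transcripts with the same pattern were thus also found outside the table the members were drawn from. Among the 19 probes that met the lower limit but failed an upper one, 10 stood at least 1 log2 unit above all other phases in decreased rhHSA, 3 exceeded the limit in adapted methanol, 1 in logarithmic growth, and 5 were raised together at the end of glycerol feeding and in adapted methanol. The rhHSA peak was thus also the lowest phase of some probes that are highest at the end of fermentation.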
